A study of Mus musculus with 2 samples.

Results

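The genes described here encode the proteasome, the protease that degrades proteins tagged with ubiquitin, together with its immunoproteasome variants, activators and assembly factors. They were taken as the probe sets with a single annotated symbol that starts with Psma, Psmb, Psmc, Psmd, Psme, Psmf or Psmg plus a number, with Psmc3ip left out. This gave 101 of 45037 probe sets and 48 of 18193 named genes. One of the 48, Psme3ip1, is found by the wording of its symbol and encodes a protein that binds the activator Psme3, not a subunit. Psme2, the partner of Psme1, shares its only probe set with the symbol Psme2b and is therefore given no value.

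The RNA came from mouse 5cc7 T cells, which carry a receptor for a moth cytochrome c peptide, MCC in the labels. After stimulation in vitro with it they were taken at day 5 as blasts, large cells that divide after activation. The RNA was hybridised to 2 Affymetrix mouse arrays, called set 2 and set 1, which form 1 group with no resting or untreated cells beside it. The labels do not say whether separate cultures were used, and the spread between the arrays may therefore be technical.

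The proteasome is a barrel, the core particle, made of stacked rings of alpha and beta subunits, and proteins are cut inside it by 3 of the beta subunits. A cap at either end recognises ubiquitin chains, unfolds the protein with a ring of ATPases and feeds it into the barrel. In lymphocytes and in cells exposed to interferon gamma, the cutting subunits are replaced by the immunoproteasome subunits, which favours peptides that fit MHC class I molecules. Activated T cells make and degrade much protein as they grow and divide.

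The values are deposited linear intensities. The background bound was, for each array, the 95th percentile of probe sets for genes of liver, eye, pancreas and kidney, and it came to 110.8 on set 2 and 97.17 on set 1. Probe sets over the bound on both arrays are called above background. A gene was above background when at least 1 of its probe sets was, and the brightest probe set gave its level. Differences between the arrays are given as set 2 minus set 1 on the log2 scale, centred on the median over all probe sets above background. Probes differ in how strongly they bind, so no gene's level is ranked against another's as an abundance.

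The promoters of catalytic subunits are shown because 2 pairs of neighbouring genes bear on the results. Psmb9 and Psmb8, both immunoproteasome genes, lie in the MHC region of chromosome 17 in the order Psmb9, Tap1, Psmb8 and Tap2, where the Tap genes encode the transporter that carries cut peptides to MHC class I. Psmb9 and Tap1 are read in opposite directions from the 225 bases between their starts. Psmb5, a standard catalytic subunit, and Psmb11, its thymus counterpart, are next to each other on chromosome 14. The bases are from RefSeq (GRCm38.p6), 5′ to 3′ on the strand of the named gene and ending just before its annotated start. Capitals mark a match to 1 of the 3 motifs named after the sequences.
Psmb9, chr17:34187331-34187555, minus strand: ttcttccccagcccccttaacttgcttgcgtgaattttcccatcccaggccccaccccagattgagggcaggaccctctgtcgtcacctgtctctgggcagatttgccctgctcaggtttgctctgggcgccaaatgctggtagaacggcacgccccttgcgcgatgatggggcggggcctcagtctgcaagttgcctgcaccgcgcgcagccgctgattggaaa
Psmb8, chr17:34197945-34198194, plus strand: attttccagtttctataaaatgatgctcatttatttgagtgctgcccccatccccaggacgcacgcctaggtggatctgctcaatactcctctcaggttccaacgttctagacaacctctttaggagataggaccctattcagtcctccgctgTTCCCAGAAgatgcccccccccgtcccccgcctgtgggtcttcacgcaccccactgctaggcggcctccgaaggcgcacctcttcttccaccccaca
Psmb5, chr14:54617996-54618245, minus strand: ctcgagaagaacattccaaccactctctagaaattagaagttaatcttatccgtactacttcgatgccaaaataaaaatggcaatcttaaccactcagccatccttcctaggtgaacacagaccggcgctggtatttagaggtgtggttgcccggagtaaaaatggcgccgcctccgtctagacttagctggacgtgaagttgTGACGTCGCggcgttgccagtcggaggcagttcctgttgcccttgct
Psmb6, chr11:70525107-70525356, plus strand: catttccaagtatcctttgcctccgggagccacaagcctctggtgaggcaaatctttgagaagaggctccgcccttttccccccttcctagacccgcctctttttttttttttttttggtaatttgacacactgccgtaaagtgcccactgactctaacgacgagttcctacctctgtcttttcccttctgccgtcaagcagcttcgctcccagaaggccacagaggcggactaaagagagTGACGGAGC
Psmb11, chr14:54625060-54625309, plus strand: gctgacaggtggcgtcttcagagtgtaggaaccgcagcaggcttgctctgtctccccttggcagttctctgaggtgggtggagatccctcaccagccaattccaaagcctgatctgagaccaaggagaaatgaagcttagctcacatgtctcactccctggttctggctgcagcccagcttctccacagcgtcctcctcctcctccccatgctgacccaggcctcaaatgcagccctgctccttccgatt

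The motifs searched on both strands were TGACNNNGC, the antioxidant response element bound by Nfe2l1 and Nfe2l2, TTCNNNGAA, the core of the gamma activated site, and the core of the interferon-stimulated response element, GAAA repeated after 2 free bases. Windows of 300 bases, of which 250 lie before the start, were available for 40 of the 48 genes and 27025 genes in all. TGACNNNGC was found in 6 of the 40 members (15.0%) and in 13.99% of all promoters. The members were Psmb5, Psmb6, Psmc6, Psmd12, Psmd9 and Psme4. TTCNNNGAA was found in 3 members (7.50%), Psmb8, Psmd2 and Psmg1, and in 9.55% of all promoters. In Psmb8 the match TTCCCAGAA lies from base -97 to -89 relative to the start. The interferon-stimulated element core was found in 5 members (12.5%), Psmb3, Psmd4, Psmd9, Psme1 and Psmg4, and in 3.99% of all promoters. The first 2 shares are close to those of all promoters, and the third rests on 5 genes. No matches of different motifs overlapped in the members, and a match of letters is not a binding site.

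Nearly all of the proteasome genes found by their symbols were detected. Of the 48 genes 46 were above background, against 35.5% of all named genes, and the 2 exceptions were Psma8 and Psmb11, forms of the core known from testis and thymus. Of the 101 probe sets 65 (64.4%) were above background, against 25.8% of all probe sets. Among the genes above background, the median of the mean intensities was 671.9 for the 46 members and 283.7 for all 6452 genes, each through its own probes.

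**Figure D1:**
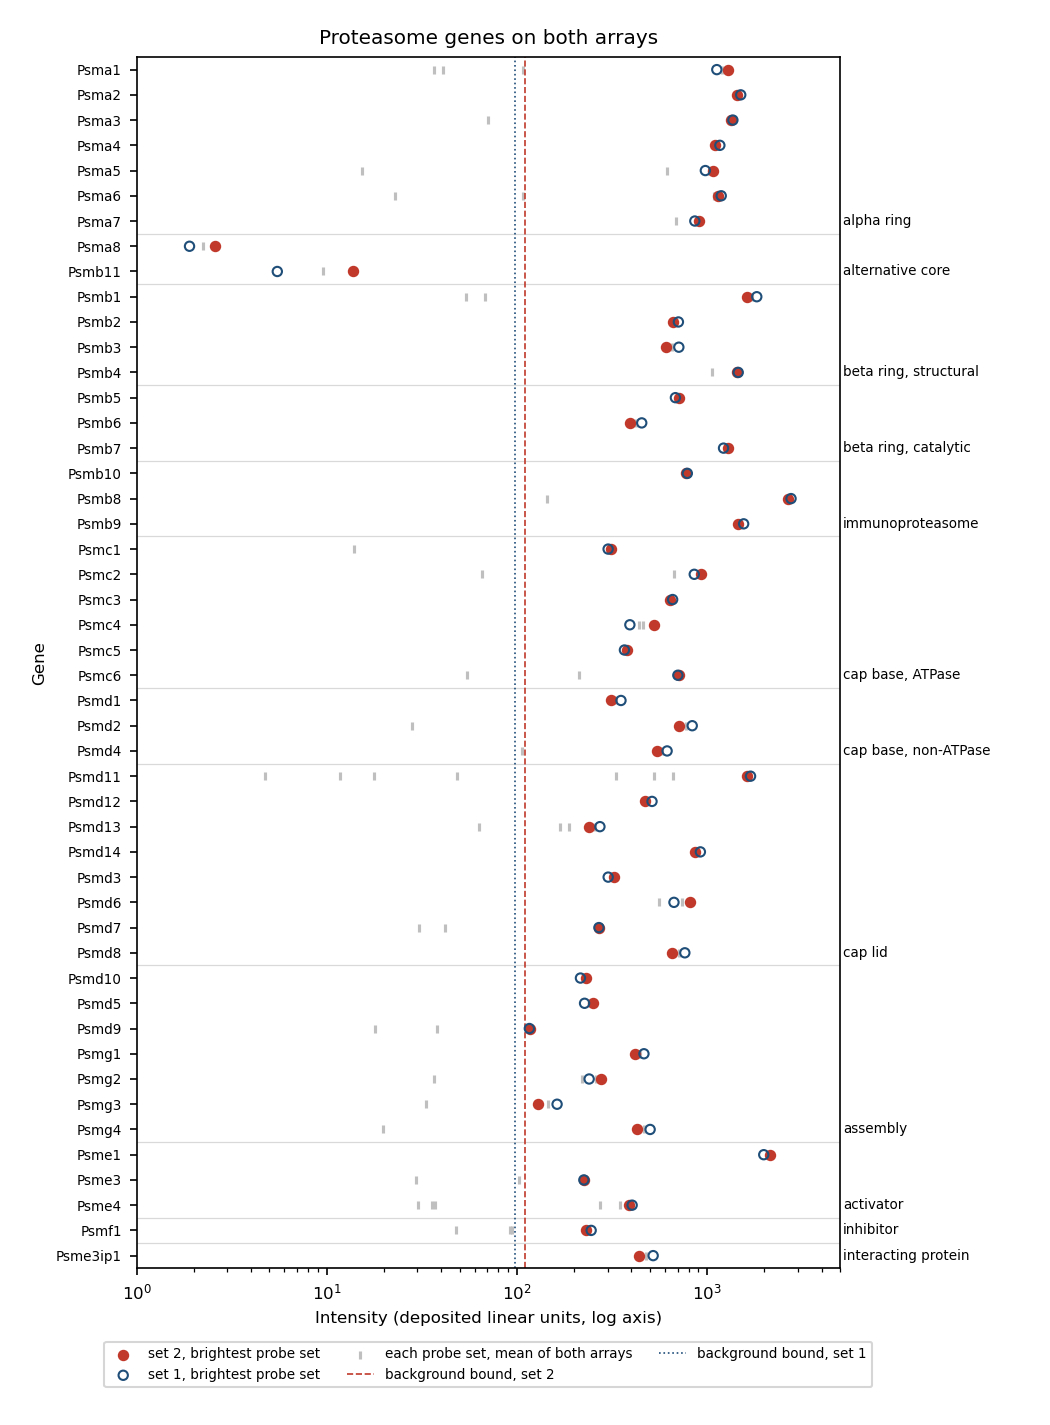
Intensity of each gene (rows, by subunit group) on set 2 (filled red) and set 1 (open blue) for its brightest probe set, on a log axis, with grey ticks for the mean of each probe set and vertical lines at the background bounds of 110.8 (set 2) and 97.17 (set 1). Psma8 and Psmb11 are the only genes left of both lines on both arrays, and Psmd9 lies just right of them.

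The alpha ring forms the outer gate of the core particle, and 7 of its 7 standard genes were above background. Psma1 read 1286 on set 2 and 1125 on set 1. Psma2 read 1442 on set 2 and 1503 on set 1. Psma3 read 1336 on set 2 and 1367 on set 1. These 3 were thus far over the bound on either array, as were the other 4. Psma4 was at 1101 on set 2 and 1168 on set 1. Psma5 was at 1074 on set 2 and 979 on set 1. Psma6 was at 1146 on set 2 and 1187 on set 1, and Psma7 at 908 on set 2 and 862 on set 1. On the brightest probe set the 7 genes differed little between the arrays. Psma1, Psma5 and Psma7 were higher on set 2, and the other 4 were lower. Further probe sets above background of Psma5 and Psma6 went the opposite way to the brightest. For Psma5, 1424681_a_at read 581 on set 2 and 652 on set 1, a log2 difference of -0.19. For Psma6, 1416506_at read 1124 on set 2 and 1045 on set 1, a difference of 0.08. Psma8, which replaces the Psma7 protein in germ cells of the testis, stood far under the bound at 2.6 on set 2 and 1.9 on set 1. Of 9 germ cell genes 0 were above background, against 35.5% of all named genes. Their summed intensity was 202.6 on set 2 and 137.9 on set 1.

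The structural beta subunits hold the inner rings together without cutting, and 4 of 4 were above background. Psmb1 read 1623 on set 2 and 1826 on set 1, and Psmb2 read 665 on set 2 and 707 on set 1. Psmb3 was at 605 on set 2 and 711 on set 1, and Psmb4 at 1443 on set 2 and 1458 on set 1. On the brightest probe set each of the 4 was lower on set 2, by log2 differences of -0.04 for Psmb4 to -0.25 for Psmb3. The other probe set of Psmb4, 1438984_x_at, went the opposite way, with 1194 on set 2 and 935 on set 1, a log2 difference of 0.33. Psmb3 and this probe set of Psmb4 thus passed the SD of 0.20 over all probe sets above background.

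The constitutive catalytic subunits were all detected. Psmb5, which cuts after large hydrophobic residues, read 712 on set 2 and 682 on set 1. Psmb6, which cuts after acidic residues, read 395 on set 2 and 453 on set 1. Psmb7, which cuts after basic residues, read 1288 on set 2 and 1221 on set 1. Each has 1 probe set, so these calls have no second probe set behind them. Psmb11 takes the place of Psmb5 in cortical thymic epithelium, where it shapes the selection of CD8 T cells. It was at 13.7 on set 2 and 5.5 on set 1, under the bound on both arrays, while the adjacent Psmb5 was above it. Above background were 35.5% of all named genes. Of 7 thymic epithelium genes 2 were, Epcam and Prss16, with a summed intensity of 494.7 on set 2 and 521.7 on set 1. Foxn1, the defining factor of that epithelium, was not, at 39.7 on set 2 and 38.0 on set 1.

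The immunoproteasome genes were above background in 3 of 3 cases, so that both the standard and the interferon-inducible form of each catalytic site were detected. Psmb8, the counterpart of Psmb5, averaged 2714 ± 70.1 (SD, n = 2), with 2665 on set 2 and 2764 on set 1. Psmb9, the counterpart of Psmb6, averaged 1504 ± 75.1 (SD, n = 2), with 1451 on set 2 and 1557 on set 1. Psmb10, the counterpart of Psmb7, averaged 781 ± 9.19 (SD, n = 2), with 774 on set 2 and 787 on set 1. The arrays thus gave nearly the same reading for all 3, with log2 differences of -0.07, -0.12 and -0.05. Whether the immunoproteasome or the standard form was the more abundant cannot be read from these intensities, which come from different probes.

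Psmb8 has a second probe set, 1444619_x_at, which read far less, 187.7 on set 2 and 99 on set 1. It was the only member probe set above background that differed by more than 1.5-fold between the arrays, with a log2 difference of 0.90. Its set 1 value lies just above the bound of 97.17. The main probe set of Psmb8, 1422962_a_at, did not share this difference.

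The ATPase ring of the cap base unfolds substrates, and 6 of 6 of its genes were above background. Psmc1 read 314 on set 2 and 302 on set 1. Psmc2 read 931 on set 2 and 856 on set 1, and Psmc3 read 640 on set 2 and 659 on set 1. Psmc5 was at 377 on set 2 and 368 on set 1, and Psmc6 at 714 on set 2 and 702 on set 1. On these probe sets the 5 had log2 differences between -0.07 and 0.10. Further probe sets above background lay outside that range. For Psmc2, 1426611_at read 641 on set 2 and 696 on set 1, a difference of -0.14, and for Psmc6, 1417770_s_at read 236 on set 2 and 186 on set 1, a difference of 0.32. Psmc4 differed most in the ring, with 529 on set 2 and 393 on set 1, a log2 difference of 0.41. Its other probe set, 1416291_at, read 431 on set 2 and 443 on set 1, so the 2 probe sets of Psmc4 moved in opposite directions.

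The remaining base subunits among the 48 members were above background in 3 of 3 cases. Psmd1, a scaffold of the base, read 314 on set 2 and 353 on set 1. Psmd2, which docks ubiquitin-like shuttle proteins, read 709 on set 2 and 836 on set 1. Psmd4, a receptor for ubiquitin chains, read 546 on set 2 and 617 on set 1. On the brightest probe set the log2 differences were -0.19, -0.26 and -0.20, so each of the 3 was lower on set 2. Psmd2 was lower by more than the SD of 0.20 over all probe sets above background. Another probe set of Psmd4 above background, 1425859_a_at, hardly differed, with 557.5 on set 2 and 556.3 on set 1. Its centred log2 difference was -0.02.

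The lid of the cap removes the ubiquitin chain before the protein is degraded, and 8 of 8 of its genes were above background. Psmd14, the deubiquitinase of the lid, read 865 on set 2 and 922 on set 1. Psmd11, a lid scaffold, read 1614 on set 2 and 1693 on set 1, and Psmd6 read 810 on set 2 and 670 on set 1. Psmd3, Psmd12, Psmd13 and Psmd8 are further scaffold subunits. Psmd3 was at 323 on set 2 and 302 on set 1. Psmd12 was at 471 on set 2 and 514 on set 1, and Psmd13 at 240 on set 2 and 273 on set 1. All were well over the bound. Psmd7, which pairs with Psmd14, read 269.6 on set 2 and 270.0 on set 1, and Psmd8 read 655 on set 2 and 764 on set 1. Psmd8 was lower on set 2, with a log2 difference of -0.24. The 2 probe sets of Psmd6 moved in opposite directions. The brighter had a log2 difference of 0.25, and the other, 1423697_at, read 508 on set 2 and 615 on set 1, a difference of -0.30.

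The alternative activators dock on the core in place of the cap, and the 3 genes with a value of their own were above background. Psme1, a subunit of the interferon-inducible activator PA28, averaged 2064 ± 110 (SD, n = 2), with 2142 on set 2 and 1986 on set 1. Psme3, which forms the nuclear PA28 gamma ring, read 226.2 on set 2 and 225.0 on set 1. Psme4, the large activator PA200, read 390 on set 2 and 404 on set 1. The activators differed by at most 0.09 on the log2 scale between the arrays. Psmf1, named an inhibitor for its action on the core in vitro, read 232 on set 2 and 246 on set 1. Psme3ip1 read 436 on set 2 and 521 on set 1.

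Assembly factors help the core and cap subunits find each other and leave once the particle is complete, and 7 of 7 were above background. Of the core chaperones, Psmg1 read 419 on set 2 and 466 on set 1, and Psmg2 read 278.5 on set 2 and 239.9 on set 1. Psmg4 was at 431 on set 2 and 502 on set 1, and Psmg3 at 128.5 on set 2 and 162.7 on set 1. Psmd5, Psmd9 and Psmd10 (gankyrin) are chaperones of the cap base. Psmd5 read 252 on set 2 and 227 on set 1, and Psmd10 read 231 on set 2 and 216 on set 1. Psmd9 read 116.7 on set 2 and 116.3 on set 1. Psmg3 and Psmd9 were the members nearest to the bound from above, and both fell below it when the bound was the 99th percentile or came from a second list of genes of other organs.

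**Figure D2:**
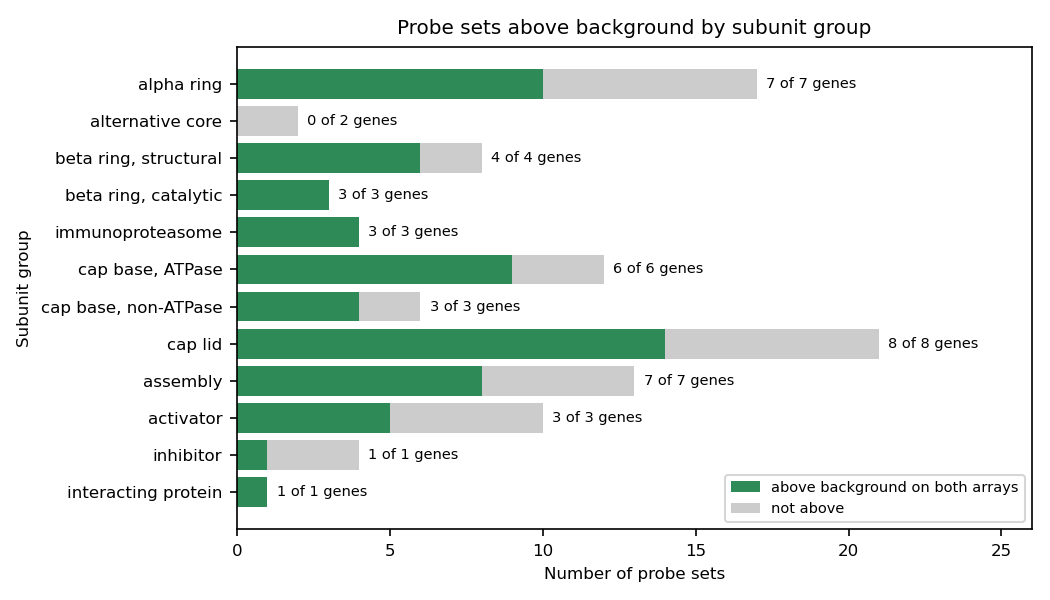
Number of probe sets (bars) in each subunit group, green for those above background on both arrays and grey for the others, with the number of genes above background written beside each bar. The 14 standard core genes and the 17 cap genes among the members were all above background, while 19 of 28 and 27 of 39 of their probe sets were.

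Probe sets of 1 gene often gave different calls. Of the 48 genes 26 have several probe sets. All probe sets exceeded the bound in 6 of them and some did in the other 20. Among all genes with several probe sets and at least 1 above background, every probe set was above in 26.6%. Psmd11 had 8 probe sets, of which 4 were above background, from 1614 on set 2 and 1693 on set 1 for 1437080_s_at to 4.7 on set 2 and 4.8 on set 1 for 1431013_at. Psme4 had 3 of 6, Psmd13 had 3 of 4, Psma6 had 2 of 4, and Psma1 and Psmf1 had 1 of 4. When the median over the probe sets gave the level, 39 of 48 genes were above background, and Psma1, Psmb1, Psmd7, Psmd9, Psmg3, Psme3 and Psmf1 were lost. The 35.5% of all named genes belongs to the rule of at least 1 probe set and cannot be set beside this count. Whether the loss is large against that of all genes was not tested.

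The calls of the members also followed the kind of sequence listed as the accession of a probe set. Of the 26 member probe sets listed with a RefSeq messenger RNA 25 (96.2%) were above background, against 33.4% for all such probe sets with 1 symbol. Of the 34 listed with an expressed sequence tag 15 (44.1%) were, against 26.7% for all. The member probe sets with another complementary DNA or no accession lay between, at 65.4% and 53.3%, against 28.8% and 35.7% for all. Over all probe sets with 1 symbol the order thus differed, with the highest share for no accession. Of the 36 member probe sets not above background 1 was listed with a RefSeq messenger, a second probe set of Psmd9, and which transcripts they bind was not examined.

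The arrays gave nearly the same picture of the proteasome. Over the 65 member probe sets above background, Pearson's r between the log2 intensities of the arrays was 0.983 and Spearman's rho was 0.987, a description across probe sets that share 2 hybridisations. The SD of the log2 difference was 0.19 for the members and 0.20 for all 11636 probe sets above background. Of the 65 members 1 was over 1.5-fold higher on set 2 and 0 were over 1.5-fold lower, and the shares over all probe sets above background were 1.08% and 0.258%. With 1 member past the limit, the count says nothing particular about the proteasome.

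The median log2 difference of the members was -0.05, against 0 for all probe sets above background by construction. Of the 46 genes 30 were lower on set 2 and 16 higher, judged on the brightest probe set. Of the 65 member probe sets above background 39 were lower and 26 higher. Over all probe sets above background 5818 were lower and 5818 higher, which the centring fixes. The share of all that were lower rose with intensity, at 44.4%, 51.8%, 55.5%, 57.6% and 74.2% in the classes given next. The medians by mean intensity are given beside those of all probe sets above background. Under 256 the median was -0.01 for 11 member probe sets and 0.03 for all 5675. Between 256 and 512 it was -0.05 for 18 members and -0.01 for all 3135. Between 512 and 1024 it was -0.07 for 21 members and -0.02 for all 1617. In these classes the members lay slightly lower than all probe sets. Between 1024 and 2048 it was -0.05 for 13 members and -0.03 for all 729, and from 2048 it was 0.01 for 2 members and -0.08 for all 480. The median over all probe sets thus fell from class to class. That of the members also fell up to the class between 512 and 1024 and was higher in the classes above it. The last class holds only 2 member probe sets. The part of intensity in the shift of the members was not tested.

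By subunit group the median log2 differences of probe sets above background were 0 for the 10 of the alpha ring, -0.15 for the 6 structural and 0.04 for the 3 catalytic beta subunits, and -0.06 for the 4 of the immunoproteasome. They were 0.02 for the 9 of the ATPase ring, -0.19 for the 4 of the other base subunits, -0.06 for the 14 of the lid, -0.01 for the 5 activators and -0.03 for the 8 assembly factors. The 4 probe sets above background of Psmd1, Psmd2 and Psmd4 were lower on set 2 after centring, from -0.02 for 1425859_a_at of Psmd4 to -0.26 for Psmd2. No difference between groups was tested.

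**Figure D3:**
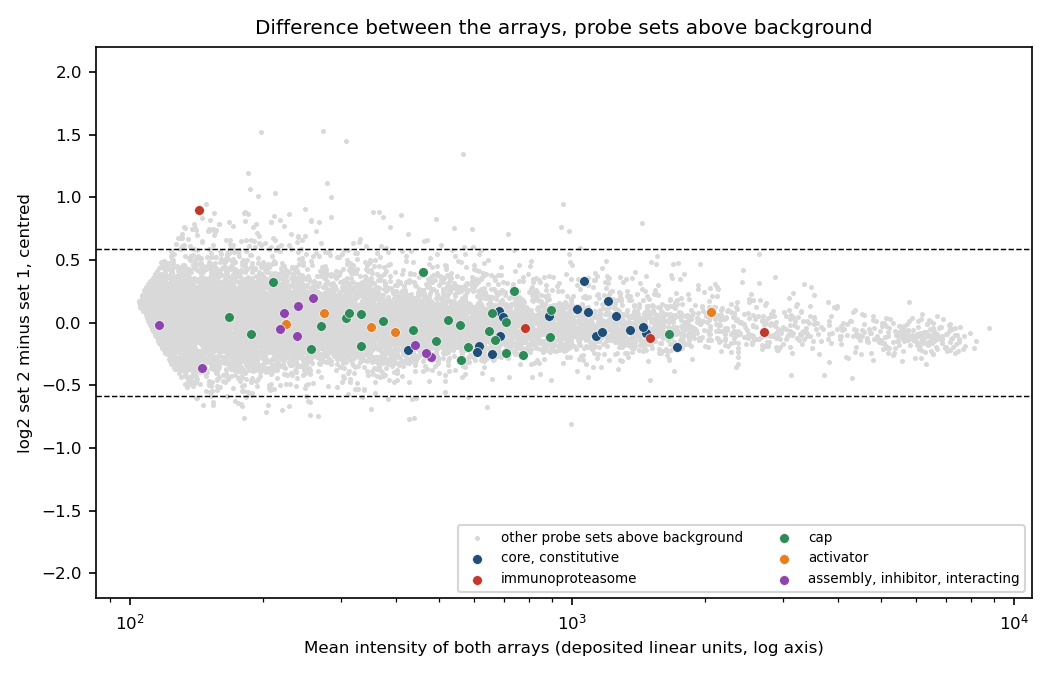
Centred log2 difference, set 2 minus set 1, against the mean intensity on a log axis for probe sets above background, with members coloured by group, other probe sets in grey and dashed lines at 1.5-fold. The members lie within the lines except the second probe set of Psmb8, at 0.90.

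Partners of the proteasome that the symbols do not cover were detected in 15 of 16 measured cases, against 35.5% of all named genes. The list held 21 genes, and those not measured were given no value. Vcp, which extracts ubiquitin-tagged proteins from complexes and membranes, read 1554 on set 2 and 1576 on set 1. Sem1, a small lid subunit, read 1196 on set 2 and 1222 on set 1, and Pomp, the chaperone that matures the core, read 1081 on set 2 and 1070 on set 1. Rad23b, a shuttle for ubiquitin-tagged proteins, read 721 on set 2 and 761 on set 1. One shuttle, Ubqln4, missed the call because it exceeded the bound of only 1 array. It read 99.8 on set 2 and 118.6 on set 1. Nfe2l1, the factor that raises proteasome genes when proteasome activity falls, chosen here after its value was seen, read 163.5 on set 2 and 158.6 on set 1. In the list of ubiquitin precursors and E1 enzymes 1 gene was measured, Uba6, which activates ubiquitin, at 191 on set 2 and 182 on set 1.

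Genes of the interferon axis and of class I loading, which act before and after the immunoproteasome, were above background in 17 of 20 measured cases. The share over all named genes was 35.5%. B2m, the light chain of MHC class I, read 5213 on set 2 and 5683 on set 1, and Jak1, a kinase of interferon receptors, read 2490 on set 2 and 2663 on set 1. Calr, which helps load peptide, was at 1646 on set 2 and 1529 on set 1, and Tapbp, which holds the loading complex together, at 1558 on set 2 and 1461 on set 1. Tap1 and Tap2, the neighbours of Psmb9 and Psmb8, were chosen here after their values were seen. Tap1 read 499 on set 2 and 505 on set 1, and Tap2 read 588.6 on set 2 and 588.4 on set 1, so the run of 4 adjacent genes was detected throughout.

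The 3 genes not above background in that list belong to interferon signalling. Ifng, the cytokine that induces the immunoproteasome, read 23.8 on set 2 and 27.4 on set 1. Ifngr2, a chain of its receptor, read 46.6 on set 2 and 38.2 on set 1, each from the brighter of 2 probe sets. Stat2, a factor of type I interferon signalling, exceeded the bound on set 1 alone, with 101.6 on set 2 and 145.0 on set 1. Irf1 and Nlrc5, regulators of immunoproteasome and class I genes chosen after their values were seen, were above background. Irf1 read 759 on set 2 and 686 on set 1, and Nlrc5 read 682 on set 2 and 626 on set 1.

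**Figure D4:**
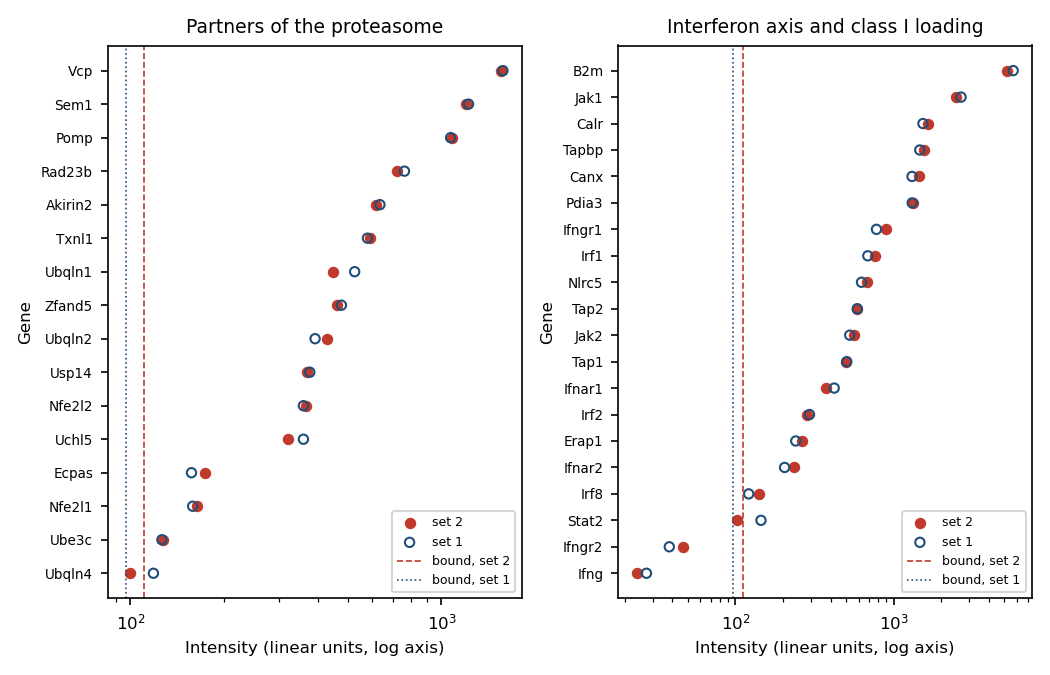
Intensity on set 2 (filled red) and set 1 (open blue) of partner genes of the proteasome (left) and of interferon and class I loading genes (right), on log axes with the background bounds as vertical lines. Ubqln4 on the left and Stat2, Ifngr2 and Ifng on the right are the genes that do not exceed both bounds.

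The immunoproteasome is also made by B cells, macrophages and dendritic cells, and the labelled cell type was checked beside them. For comparison, 35.5% of all named genes were above background. All 11 measured T cell genes were above background, with a summed intensity of 21084 on set 2 and 21722 on set 1. Of 12 B cell genes 5 were, Ighm, Ms4a1, Cd22, Cd79b and Bank1, with a sum of 3523.4 on set 2 and 3979.5 on set 1, while Pax5 and Cd79a were not. Of 15 macrophage and dendritic cell genes 1 was, Ctss, with a sum of 1872.6 on set 2 and 1397.3 on set 1, and C1qa was near 0 at 2.1 on set 2 and 2.7 on set 1. Csf1r, a defining receptor of macrophages, exceeded the bound of set 2 alone, with 146.7 on set 2 and 57.3 on set 1, and Adgre1 exceeded neither, with 76.6 on set 2 and 39.7 on set 1. Of 7 NK cell genes 2 were, Klrd1 and Klrk1, with a sum of 2213.6 on set 2 and 2070.5 on set 1, and of 8 granulocyte genes 0 were, with a sum of 162.0 on set 2 and 227.1 on set 1. Single genes made up much of some sums. Ighm alone read 2163.0 on set 2 and 2580.6 on set 1, Ctss 1226.9 and 945.2, and Klrd1 1683.0 and 1576.8. The sums come from different probes and lists of unequal size, so they do not give shares of cells. The part of cells other than T cells in the immunoproteasome levels was not tested. The labels do not say whether such cells were present. Fewer cells of a type and less RNA per cell cannot be told apart in RNA from a culture that may hold several types.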

How the data were processed

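Gene expression in 1 group of 2 arrays was used as deposited. The deposited values are linear intensity values, 1 per probe set and array, and how the authors corrected, summarised and scaled them is not given in the sources used here. Medians were 37.9 on set 2 and 36.4 on set 1. The number of arrays limits the precision. Of 45101 probe sets 64 controls were left out. Symbols came from GEO's platform annotation, where 34945 probe sets had 1 symbol, 932 several and 9160 none, and 34741 were matched by Entrez identifier to RefSeq genes (GRCm38.p6), with 0 symbols changed. The bound rests on 66 probe sets of 43 genes, of which the probe sets of Prss2 and Kap were the highest. Intensities under 1 were set to 1 before log2, and the median difference subtracted was 0.02. With 1 group no comparison could be tested, and protein sequences were not analysed here. Every member was named. From each partner list all genes not above background and up to 4 with the highest mean intensity were named, and the text marks the others as chosen after the fact. Members, gene lists and alternatives were chosen with earlier results of these data known. Calculations were tested on simulated data and used Python 3.11.15, numpy 2.4.6, pandas 2.3.3, scipy 1.17.1 and matplotlib 3.10.9.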

Additional observations from a re-analysis of the deposited data

How the results depend on the processing

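The alternatives changed the bound, the arrays, the probe sets and the scaling. The count of proteasome genes above background, 46 of 48, stayed at 46 for a 90th percentile bound, for a bound at the median of all probe sets and on either array alone, and was 44 for a 99th percentile bound and for the second list of organs. The share of all probe sets above background was 25.8%, and it was 34.9%, 46.4%, 22.1% and 20.8% with the 90th percentile, the median, the 99th percentile and the second list. These shares belong beside the member probe sets above background, which numbered 72, 80, 62 and 62 of 101 in the same order. They are not shares of genes. The share of all named genes, 35.5%, is given for the main bound on both arrays only. Probe sets above background numbered 66 on set 2 alone and 69 on set 1 alone, against 65 on both. Without probe sets whose name carries a suffix letter, which may bind several transcripts, fewer features were left. The counts were then 38 of 68 probe sets, 36 of 42 genes, 11 of 14 interferon and class I genes, and 0 probe sets past 1.5-fold. Of all such probe sets with 1 symbol 24.8% were above background. Psma3, Psma5, Psmb1 and Psmc6 lost their call. Psmb5, Psmb8, Psmd4, Psmd12, Psmd14 and Psmd10 had no probe set left, so their calls rest on suffixed probe sets alone. With the median over probe sets, Psmf1 was not above background, so that 0 of 1 inhibitor genes was. The count past 1.5-fold, 1 of 65, was 7 of 101 with no filter on dim probe sets, 0 of 62 with the filter at the 99th percentile and 0 with a 2-fold limit. Of the 36 member probe sets not above background 6 were past 1.5-fold, and of all 33401 not above background 13012 were. The count was 1 with no centring, quantile normalization or 16 added before log2. The median difference of the members ranged from -0.05 to -0.02. Leaving out Psme3ip1, an alternative chosen after seeing the data, gave 45 of 47 genes. No paired analysis was possible because the arrays form 1 group.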

Other observations

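The 5 member probe sets above background that were most raised on set 2 all carry a suffix letter in their name, the manufacturer's mark of probes shared between transcripts. They were 1444619_x_at of Psmb8, 1416290_a_at of Psmc4, 1438984_x_at of Psmb4, 1417770_s_at of Psmc6 and 1423696_a_at of Psmd6, with log2 differences of 0.25 to 0.90. The SD of the difference was 0.25 over the 27 suffixed member probe sets and 0.13 over the 38 others. The 27 include 1444619_x_at of Psmb8, at 0.90, whose set 1 value of 99 lies just above the bound of 97.17. How far the contrast rests on that probe set was not tested. Over all probe sets above background with 1 symbol it was 0.21 for 3471 suffixed and 0.19 for 6688 others, and 1.58% and 0.837% were over 1.5-fold higher on set 2. This was looked at after seeing the data.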
